A study of Mus musculus with 212 samples.

Results

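Single cells of the E10.5 mouse embryo in which the Tnnt2-1 assay of cardiac troponin T gave a signal were divided by Hand1, a transcription factor of the embryonic left ventricle. Of 72 cells in the E10.5 table, 67 detected Tnnt2-1. Hand1 was detected in 31 of these (46.3%, exact Clopper-Pearson 95% interval 33.998% to 58.9%) and undetected in 36. The series holds 200 cells in 7 tables, measured with 42 TaqMan assays of 33 genes by microfluidic quantitative PCR. The files list the quantification cycle (Ct) of each assay, and 25 stands where no signal was seen. Expression is given as 25 minus Ct, in cycles: each cycle stands for about 1 doubling of template on the log2 scale, and 0 means not detected.

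Both groups are mouse embryo cells of stage E10.5 from the same table, given by the labels as cardiac, and differ in nothing the labels name. The sources used here do not state genotype, strain, treatment, heart chamber or the gate of the sort. The stage comes from the table's name and its cell names, since the titles say only that the cells came from embryos. The title E10.5 cell is given to cells of a different set. No animal, litter or culture is named either, so the 72 cells are 1 sample. No p-value or standard error was therefore computed, every SD is a spread between cells, and every interval covers counting error only. The members were chosen by their Tnnt2-1 and Hand1 values, so both assays are described and not counted among the 40 assays compared. The other assays were read in the same cells, and their differences are descriptions too.

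Hand1 and its relative Hand2 are basic helix-loop-helix transcription factors of the developing heart. In the mouse embryo Hand1 marks the myocardium of the left ventricle, while Hand2 is strongest in the right ventricle and outflow tract. Tbx5, a T-box factor, is expressed in the atria and the left ventricle, which share much of their origin in the first heart field. The second heart field, marked by Isl1, contributes the right ventricle and outflow tract. Hcn4, the pacemaker channel, is transcribed early in first heart field myocytes and later in the conduction system. Chamber identity in the contractile genes is read from Myl2, the ventricular regulatory light chain, and Sln, sarcolipin, which restrains the sarcoplasmic calcium pump in atrial myocytes.

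Hand1 itself ran from 4.92 to 11.18 cycles in the 31 detecting cells, with a median of 8.81 and a mean of 8.40 ± 1.79 (SD, n = 31). There was no cell between 0 and 4.92, so the cells just inside the threshold lay well above the detection limit and those outside all lay at 0. A threshold of Ct 23 in place of 25 chose the same 31 cells. Tnnt2-1 ran from 10.95 to 14.18 cycles in Hand1-detected cells and from 4.82 to 13.44 in Hand1-undetected cells. Weak troponin signals thus occurred in Hand1-undetected cells and in none of the Hand1-detected ones.

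Hand1-detected cells carried more ventricular and general contractile transcripts on average. Of the 40 assays, 19 (47.5%) averaged at least 1 cycle higher in Hand1-detected cells and 2 (5%) at least 1 cycle lower, with a median difference over all 40 of 0.39 cycles. With each cell centred on its median detected assay these counts were 14 and 11, and in cells with at least the median number of detected assays (24 Hand1-detected and 14 Hand1-undetected) they were 6 and 1. All 9 cardiomyocyte assays were among the 19, with a median difference of 2.91. The share of detecting cells differed by at least 20 percentage points for 12 assays, 11 of them higher in Hand1-detected cells. Depth differed as well: 26.9 ± 2.06 of the 40 assays were detected per Hand1-detected cell (SD, n = 31) and 23.3 ± 4.29 per Hand1-undetected cell (SD, n = 36). Its part in these differences was not tested.

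**Figure D1:**
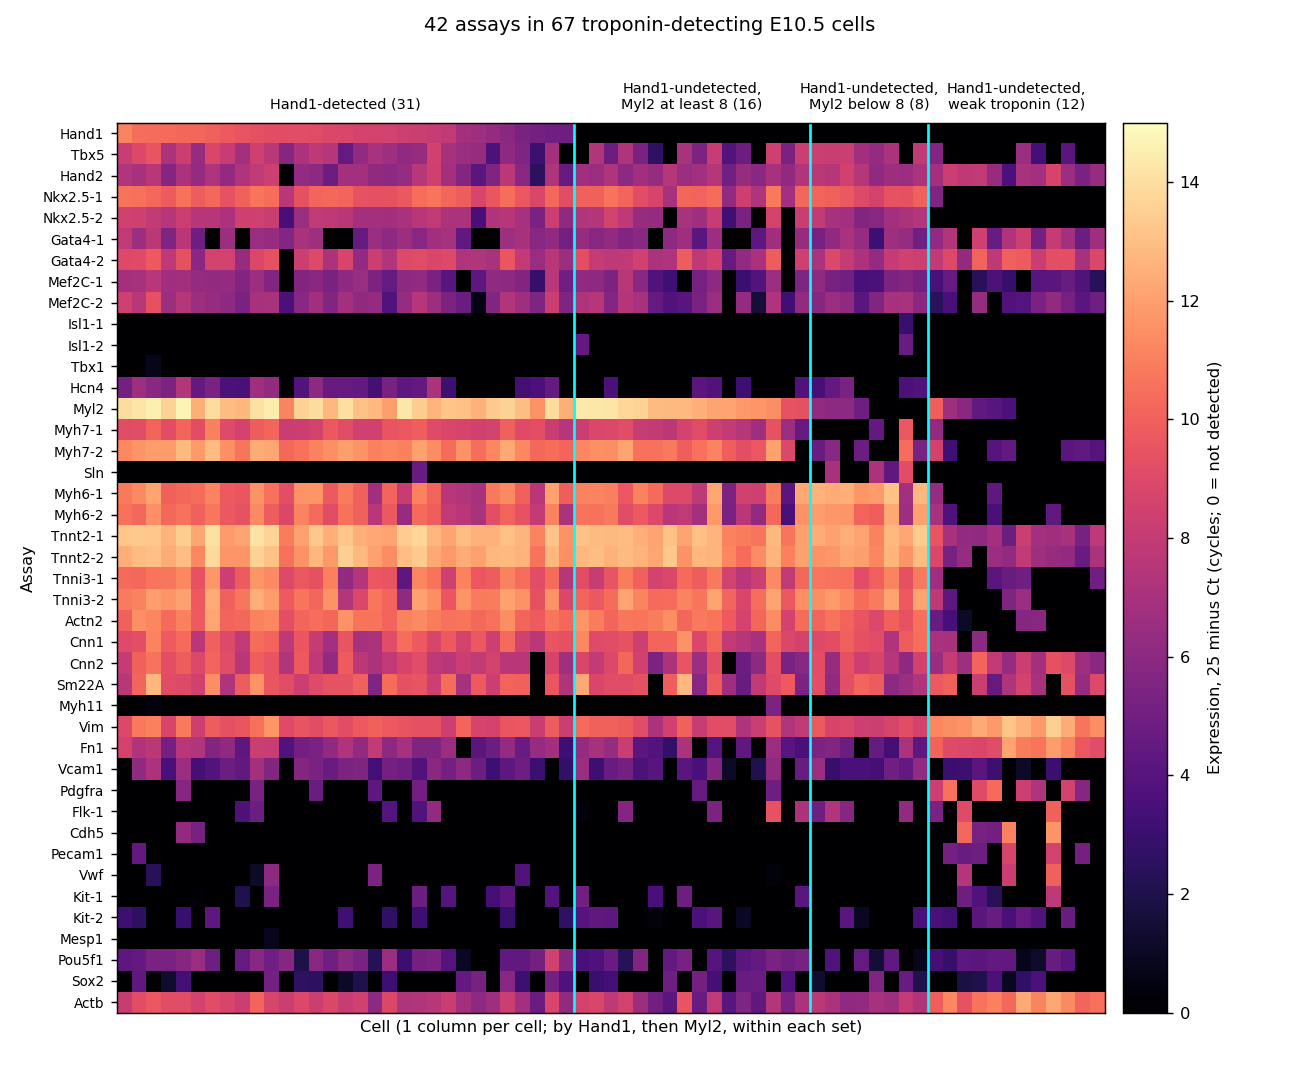
Expression (25 minus Ct, in cycles, colour scale) of 42 assays (rows) in the 67 troponin-detecting E10.5 cells (columns). From left to right stand 31 Hand1-detected cells, then 16 Hand1-undetected cells with Myl2 of at least 8 cycles, 8 with Myl2 below 8, and 12 with Tnnt2-1 below 10. The 12 cells at the right lack most contractile signals and are bright for Fn1, Vim and Actb, and Hcn4 is detected in 25, 5, 5 and 0 cells of the 4 sets.

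The ventricular assays differed most. Myl2 was detected in 31 of 31 Hand1-detected cells, at 11.2 to 14.7 cycles with a median of 13.4, and in 26 of 36 Hand1-undetected cells, at 0 to 14.3 with a median of 6.43. Its means were 13.29 ± 0.87 in Hand1-detected cells and 7.14 ± 5.46 in Hand1-undetected cells, a difference of 6.15 cycles. Hand1-undetected cells spanned the whole scale: 22 of the 36 lay below the lowest Hand1-detected cell and the other 14 overlapped with that group. Myh7, the slow beta myosin heavy chain, was read by a pair of assays. Myh7-1 averaged 9.14 ± 0.76 in Hand1-detected cells (31 of 31 detecting) and 4.12 ± 4.10 in Hand1-undetected cells (19 of 36), a difference of 5.02. Myh7-2 averaged 11.39 ± 0.75 in Hand1-detected cells (31 of 31) and 6.21 ± 4.52 in Hand1-undetected cells (27 of 36), a difference of 5.18. On Myh7-2, 25 of the 36 Hand1-undetected cells lay below every Hand1-detected cell.

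The other contractile assays followed with smaller differences. Those of Myh6, the alpha myosin heavy chain, were 2.91 (Myh6-1) and 2.78 (Myh6-2), and those of Tnni3, cardiac troponin I, were 2.55 (Tnni3-1) and 2.75 (Tnni3-2). Actn2, the Z-disc protein alpha-actinin 2, averaged 10.65 ± 0.63 in Hand1-detected cells (31 of 31) and 7.43 ± 4.36 in Hand1-undetected cells (29 of 36). Tnnt2-2, the second troponin T assay, differed by 2.27. It is counted among the compared assays although it reads the gene whose other assay chose the cells. In each of these assays the SD was larger in Hand1-undetected cells, and the highest Hand1-undetected value reached past the Hand1-detected median. For the genes named next, both assays moved together over those of the 67 cells that detected both. Pearson's r was 0.98 for Tnnt2, 0.97 for Tnni3, 0.95 for Myh6, 0.91 for Nkx2.5, 0.84 for Myh7, 0.76 for Gata4 and 0.68 for Mef2C. The paired assays of Kit and Isl1 were not compared in this way.

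Transcription factors were mixed. Of 8 assays of core cardiac factors, 5 were at least 1 cycle higher in Hand1-detected cells and 0 lower, with a median difference of 1.38. That is near the 47.5% of all assays, and centring on the median detected assay gave 3 higher and 3 lower. Nkx2.5-1, an assay of the cardiac homeobox factor, was detected in 31 of 31 Hand1-detected cells at 9.88 ± 0.68, against 25 of 36 Hand1-undetected cells at 6.34 ± 4.43. Nkx2.5-2 gave a difference of 3.18. The muscle enhancer factor assays Mef2C-1 and Mef2C-2 differed by 1.48 and 1.28. Both assays of Gata4, a zinc finger factor of cardiac and other mesoderm, lay within 1 cycle (Gata4-1 -0.21, Gata4-2 -0.03).

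Tbx5 was detected in 30 of 31 Hand1-detected cells, at 0 to 9.54 cycles with a median of 6.88, and in 24 of 36 Hand1-undetected cells, at 0 to 8.42 with a median of 5.08. The means were 6.68 ± 1.91 in Hand1-detected cells and 4.20 ± 3.32 in Hand1-undetected cells, a difference of 2.48 that is smaller than the spread of the Hand1-undetected cells. Hand2, by contrast, was present throughout. It averaged 6.25 ± 1.70 in Hand1-detected cells (31 of 31) and 6.80 ± 0.97 in Hand1-undetected cells (36 of 36), a difference of -0.56, and 1 Hand1-detected cell at 0.0911 set the lower end of its range. The medians were 6.38 in Hand1-detected cells and 6.80 in Hand1-undetected cells, and the ranges overlapped. Detection of Hand1 did not come with absence of Hand2 in any cell.

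Hcn4 had the largest difference in detection of the 40 assays. It was detected in 25 of 31 Hand1-detected cells (80.6%, exact interval 62.5% to 92.5%) and in 10 of 36 Hand1-undetected cells (27.8%, exact interval 14.2% to 45.2%). Values ran from 0 to 7.42 with a median of 4.46 in Hand1-detected cells, and from 0 to 5.38 with a median of 0 in Hand1-undetected cells. The means were 3.97 ± 2.28 in Hand1-detected cells and 1.09 ± 1.81 in Hand1-undetected cells. All 25 Hand1-detected cells with Hcn4 also detected Tbx5, as did 9 of the 10 Hand1-undetected ones. Tbx5 was common with or without Hcn4: 30 of all 31 Hand1-detected cells detected it. So did 20 of the 24 Hand1-undetected cells with Tnnt2-1 of at least 10 cycles, which include all 10 with Hcn4. A link between Hcn4 and Tbx5 was not tested.

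The progenitor factor Isl1 was nearly absent. Neither of its assays gave a signal in any of 31 Hand1-detected cells (a count of 0 here leaves room for a share of up to 9.68%), and at least 1 of them did so in 2 of 36 Hand1-undetected cells. Of the 5 assays counted for the second heart field and right ventricle, the Mef2C pair was at least 1 cycle higher in Hand1-detected cells and Hand2 and the Isl1 pair lay within 1 cycle, with a median difference of -0.08. This count of 2 of 5 is again near the 47.5% of all assays. Centred on the median detected assay, 0 of the 5 were higher and 1, Hand2, was lower, by -1.70. Tbx1, a factor of pharyngeal mesoderm, and Mesp1, an early marker of mesoderm bound for the heart, were each detected in 1 Hand1-detected cell, at under 1 cycle, and in 0 of 36 Hand1-undetected cells.

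The 2 assays lower in Hand1-detected cells were receptors of early mesoderm. Flk-1, the VEGF receptor Kdr of endothelial and cardiac progenitors, was detected in 5 of 31 Hand1-detected cells at a mean of 0.72 ± 1.73 and in 12 of 36 Hand1-undetected cells at 2.13 ± 3.38. Pdgfra, the PDGF receptor alpha of mesenchyme, was detected in 5 of 31 Hand1-detected cells at 0.81 ± 1.90 and in 10 of 36 Hand1-undetected cells at 2.16 ± 3.69. Of these 10, 8 were cells of weak troponin, and among strong-troponin cells Pdgfra was detected in 5 of 31 Hand1-detected and 2 of 24 Hand1-undetected cells, with the difference turned to 0.42. Of the 5 early mesoderm assays these were the only ones past 1 cycle, and the list's median difference was -0.85. Kit-2, an assay of the stem cell factor receptor, was the 1 assay whose share was lower by at least 20 points, with detection in 9 of 31 Hand1-detected cells and 18 of 36 Hand1-undetected cells. Kit-1, the other assay of this gene, did not share this: it was detected in 8 of 31 Hand1-detected cells and 8 of 36 Hand1-undetected cells.

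Endothelial, mesenchymal and smooth muscle markers did not run one way. Among 4 endothelial assays (Cdh5, Pecam1, Vwf and Flk-1) Flk-1 alone was past 1 cycle, and the median was -0.86. Of 4 mesenchymal assays, the adhesion molecule Vcam1 was higher by 1.42, Pdgfra was lower, and the intermediate filament gene Vim and fibronectin, Fn1, lay within 1 cycle. Of 4 smooth muscle and calponin assays, calponin 1 (Cnn1, 2.30) and Sm22A (transgelin, 1.30) were higher, Cnn2 differed by 0.76, and Myh11, smooth muscle myosin, was detected in 1 cell of each group. This count of 2 of 4 is near the 47.5% of all assays, and without the 12 cells of weak troponin described further on Cnn1 turned to -0.24. Cnn1 and Sm22A are also transcribed in the embryonic myocardium. The pluripotency factor Pou5f1 averaged 4.42 ± 2.04 in Hand1-detected cells and 3.05 ± 1.94 in Hand1-undetected cells, and Sox2 differed by 0.01. Actb, the housekeeping assay, differed by -0.06.

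These averages combined unlike cells on the Hand1-undetected side. On Tnnt2-1, 12 of the 36 cells lay at 4.82 to 9.53 cycles and the other 24 at 10.68 to 13.44. The division between them was set at 10 cycles after the values were seen. In the 12 weak-troponin cells the name myocyte was not borne out by the other cardiomyocyte markers. All 6 cardiomyocyte marker assays (the Tnnt2-2, Tnni3 and Myh6 assays and Actn2) were detected in 31 of 31 Hand1-detected cells, in 24 of 24 strong-troponin Hand1-undetected cells and in 1 of the 12 weak-troponin ones. The summed level of these 6 assays had a median of 64.2 cycles (49.1 to 72.1) in Hand1-detected cells, 63.97 (44.9 to 71.5) in strong-troponin Hand1-undetected cells and 12.3 (0 to 41.4) in weak-troponin cells. Tnnt2-2 reads the gene by which the 12 were set apart, so its lower level there follows from the choice. It was detected in 11 of the 12, and each of the other marker assays in 2 to 5 of them.

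**Figure D2:**
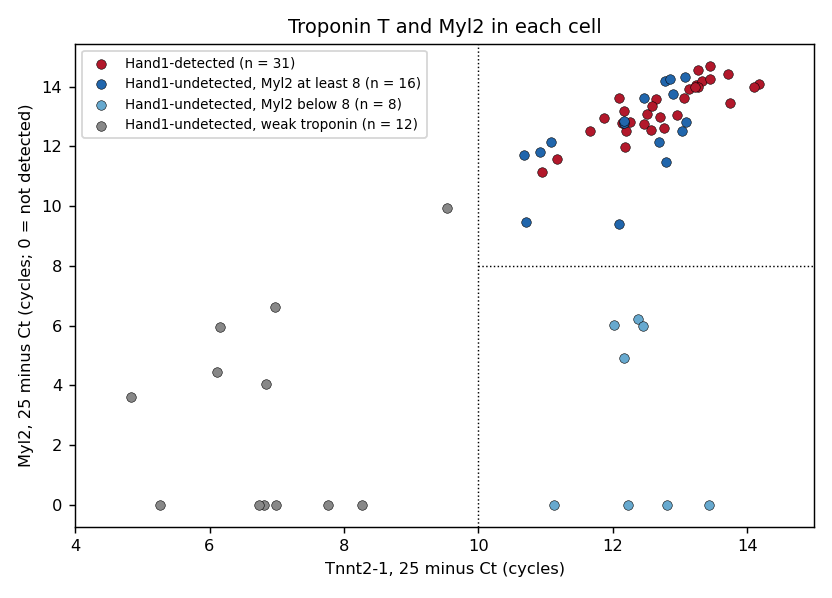
Myl2 (vertical axis) against Tnnt2-1 (horizontal axis), both as 25 minus Ct in cycles, with 1 point per cell and colours for Hand1-detected cells and 3 sets of Hand1-undetected cells. Dotted lines mark 10 cycles of Tnnt2-1 and 8 cycles of Myl2. All 31 Hand1-detected cells lie at the upper right, at Myl2 of at least 11.2, while Hand1-undetected cells fall into 12 with weak troponin, 8 with strong troponin and low Myl2, and 16 beside the Hand1-detected cells.

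The weak-troponin cells carried other signals. Nkx2.5-1 was detected in 1 of 12, Nkx2.5-2 and Hcn4 in 0 of 12 (a share of up to 25% remains possible), and Actn2 in 5 of 12. Fibronectin (Fn1) averaged 5.97 ± 1.78 cycles in Hand1-detected cells, 4.30 ± 2.40 in strong-troponin Hand1-undetected cells and 10.16 ± 1.19 in weak-troponin cells. Vim averaged 9.54 ± 0.84 in Hand1-detected cells, 8.86 ± 0.91 in strong-troponin Hand1-undetected cells and 12.01 ± 0.82 in weak-troponin cells (SD, n = 31, 24 and 12). The mesenchymal and endothelial signals of the weak-troponin cells did not all lie in the same cells. Pdgfra was detected in 8 of the 12, and at least 1 of Cdh5, Pecam1 and Vwf in 7, with all 3 in 3 cells. At least 1 of the 3 gave a signal in 8 of 31 Hand1-detected cells, at sums of 0 to 6.26 over the group and with no cell detecting all 3. The sum ran from 0 to 0.367 in the 24 strong-troponin Hand1-undetected cells, of which 1 gave a signal, and from 0 to 30.3 with a median of 5.07 in the 12 weak-troponin cells. Each set outside the 12 had a median of 0.

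Actb was not lower in these 12 cells. It averaged 8.06 ± 1.22 cycles in Hand1-detected cells, 6.74 ± 1.56 in strong-troponin Hand1-undetected cells and 10.85 ± 0.86 in weak-troponin cells, of which the last detected 18.8 ± 3.70 of 40 assays per cell. Hand2 was detected in all 12, at 6.81 ± 1.37. All 12 stood among the first 34 of the table's 72 columns, and the other sets ran to column 68 or beyond. Those sets were not evenly spread either. The Myl2-low cells described below were E10.5-1, E10.5-48, E10.5-52, E10.5-62, E10.5-65, E10.5-66, E10.5-67 and E10.5-69, numbered by column. The Hand1-detected cells without Hcn4 were E10.5-2, E10.5-45, E10.5-47, E10.5-53, E10.5-55 and E10.5-56. The labels do not say whether column order follows a chip, a sort or an embryo, and its part in the differences was not tested.

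Among strong-troponin cells alone, 31 Hand1-detected cells stood against 24 Hand1-undetected cells. Here 9 of 40 assays (22.5%) were at least 1 cycle higher in Hand1-detected cells and 2 (5%) lower, and 7 of the 19 higher assays of all troponin cells stayed past 1 cycle. The number of assays detected per cell was 26.9 ± 2.06 in Hand1-detected cells and 25.5 ± 2.36 in these Hand1-undetected cells. The ventricular trio led, with 4.03 for Myl2, 3.43 for Myh7-2 and 3.22 for Myh7-1, followed by Hcn4 at 2.33. The remaining higher assays were Fn1 (1.67), Actb (1.31), Pou5f1 (1.28), Tbx5 (1.199) and Nkx2.5-2 (1.16), and the lower ones were Flk-1 (-1.46) and Sln (-1.004). Of the 9 cardiomyocyte assays 3 were higher, all of them ventricular, and 6 lay within 1 cycle. Myh6-1 (-0.20), Tnni3-2 (-0.20) and Cnn1 (-0.24) now averaged slightly lower in Hand1-detected cells.

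Actb was itself higher in Hand1-detected cells, so levels relative to it differ from those as measured. Centring each cell on Actb gave 5 assays at least 1 cycle higher and 11 lower, with a median difference over all 40 of -0.34. Centring on the median detected assay gave 5 higher and 3 lower. On Actb, the ventricular trio and Hcn4 stayed more than 2 cycles higher in Hand1-detected cells: 3.03 for Myl2, 2.53 for Myh7-2, 2.48 for Myh7-1 and 2.12 for Hcn4. Tbx5 shrank to 0.27, and 5 of the 9 cardiomyocyte assays became at least 1 cycle lower. Centred on the median detected assay of each cell, the same 4 assays were higher by 3.72, 3.06, 3.01 and 2.31. Fn1 stayed past 1 cycle under both (1.01 on Actb, 1.32 on the median), and Flk-1 stayed lower by more than 1 cycle under both (-1.92 and -1.84). So did Sln (-1.27 and -1.38). Undetected values take the lowest centred value, so centred differences include differences in detection. Fn1 was detected in 30 of 31 Hand1-detected and 20 of these 24 Hand1-undetected cells, and Hcn4 in 25 and 10. Hand2, which differed by -0.55 as measured, was lower by more than 1 cycle under both centrings (-1.87 and -1.27).

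**Figure D3:**
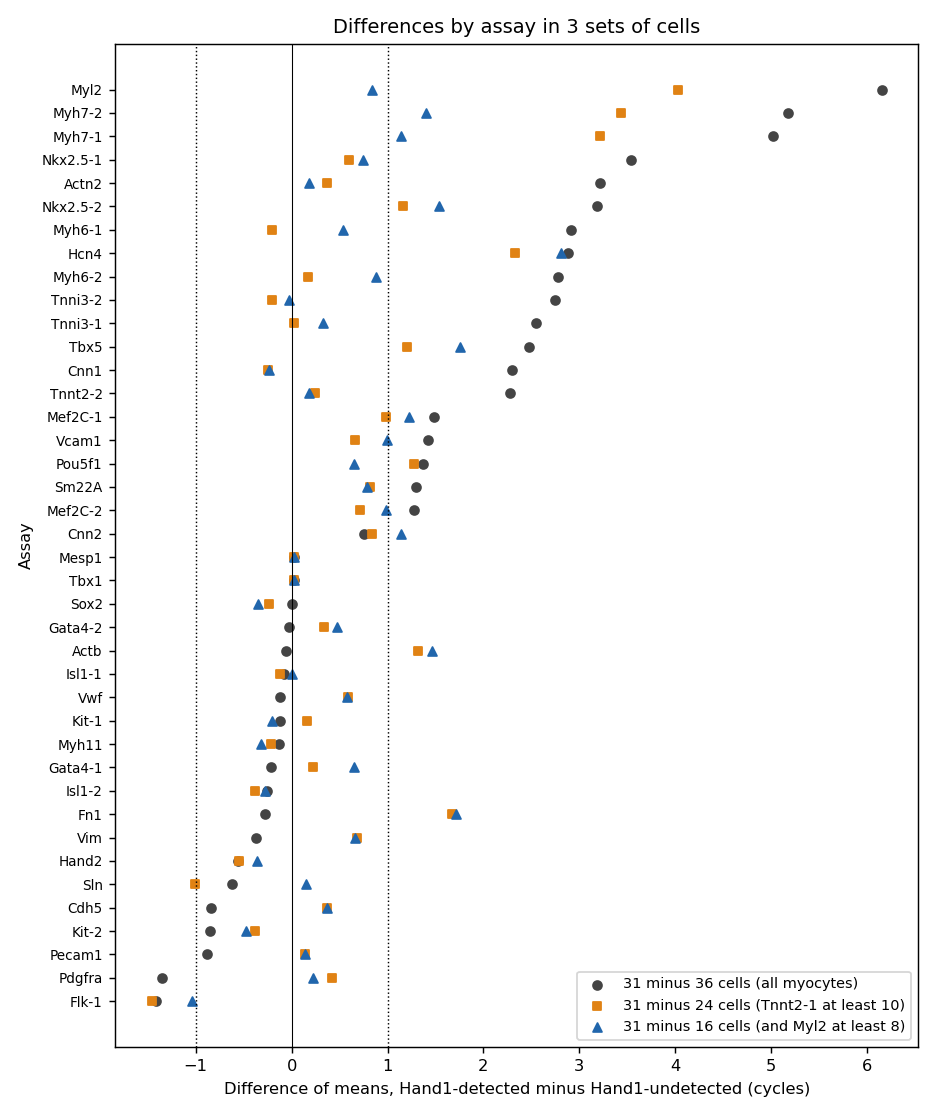
Difference of means (Hand1-detected minus Hand1-undetected, in cycles, horizontal axis) for each of the 40 compared assays (vertical axis). Circles use all 31 and 36 cells, squares the 31 and 24 cells with Tnnt2-1 of at least 10 cycles, and triangles the 31 and 16 cells that also have Myl2 of at least 8. Dotted lines mark 1 cycle; Hcn4 lies between 2.33 and 2.88 in all 3 sets, while Myl2 lies at 6.15, 4.03 and 0.84.

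The strong-troponin Hand1-undetected cells were in turn of 2 kinds by Myl2. In 16 of the 24, Myl2 lay at 9.40 to 14.3 cycles, and in 8 at 0 to 6.24. The division at 8 cycles was again set after the values were seen, and all 31 Hand1-detected cells lay above it. The atrial gene Sln was detected in 1 of 31 Hand1-detected cells, 0 of 16 Myl2-high and 4 of 8 Myl2-low Hand1-undetected cells. Of the 4 Sln signals in Myl2-low cells, 3 came in cells without Myl2. Myh7-1 was detected in 31 of 31 Hand1-detected cells, in all 16 Myl2-high Hand1-undetected cells and in 2 of the 8 Myl2-low ones. Myh6-1 averaged 10.03 ± 1.51 in Hand1-detected cells, 9.49 ± 2.31 in the 16 and 11.71 ± 2.03 in the 8. The ranges of Myh6-1 overlapped between the 3 sets, and the highest mean stood in the Myl2-low cells. Tbx5 was detected in 7 of the 8, at 6.60 ± 2.77, and Hcn4 in 5 of the 8, at 2.58 ± 2.23. Hand1 was thus undetected in every troponin cell with low or absent Myl2, while Tbx5 and Hcn4 occurred on both sides of that division.

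Of the 8 Myl2-low cells, 4 recur with identical values in another table of the series, as do 1 of the 16 Myl2-high Hand1-undetected cells and 1 Hand1-detected cell. They are the same measurements listed again and were counted once. Among the recurring Myl2-low cells 3 of 4 detected Sln, and among the non-recurring ones 1 of 4 did. The 1 Hand1-detected cell with Sln also recurs, so 0 of the other 30 had it. The sources used here do not say how cells were picked for the second table.

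The closest comparison set the 31 Hand1-detected cells against the 16 Hand1-undetected cells that also passed the cutoffs for strong troponin and high Myl2. The cells were not matched in level, and 2 of the 16 lay below every Hand1-detected cell on Myl2. Again 9 of 40 assays (22.5%) were at least 1 cycle higher in Hand1-detected cells, while 1 (2.5%) was lower, and the median difference over all assays was 0.51. On Actb the balance turned, with 2 higher, 9 lower and a median of -0.32, and centring on the median detected assay gave 4 higher and 1 lower. Hcn4 led. It was detected in 25 of 31 Hand1-detected cells and in 5 of the 16 Hand1-undetected cells (31.3%, exact interval 11.02% to 58.7%). Its means were 3.97 ± 2.28 in Hand1-detected cells and 1.16 ± 1.79 in these Hand1-undetected cells, and no Hand1-undetected cell of the 16 exceeded the Hand1-detected median of 4.46. The difference was 2.81 cycles as measured, 2.72 with Actb centring and 2.99 with median centring. Centring puts undetected cells at the lowest centred value, so all 3 figures carry the difference in detection. They cannot show whether Hcn4 relative to Actb differed among detecting cells. Hcn4 was also the 1 assay of 40 whose share still differed by at least 20 points. Its signals were low, with means over detecting cells of 4.92 in Hand1-detected cells and 3.72 in the 16. Actb averaged 8.06 in Hand1-detected cells and 6.59 in the 16. Within the Hand1-detected cells Hcn4 ran with Actb (Spearman 0.68), and the parts of unequal total signal and of column order in its detection were not tested.

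Tbx5 came next, at 6.68 ± 1.91 in Hand1-detected cells and 4.92 ± 2.93 in the 16 Hand1-undetected cells, a difference of 1.76 cycles (0.85 on Actb, 1.45 on the median). Fn1 averaged 5.97 ± 1.78 in Hand1-detected cells and 4.26 ± 2.61 in the 16, a difference of 1.71 (1.08 on Actb, 1.60 on the median). Tbx5 and Fn1 were each detected in 30 of 31 Hand1-detected cells and 13 of the 16, and their centred differences include this. The others past 1 cycle were Nkx2.5-2 (1.54), Actb (1.46), Myh7-2 (1.40), Mef2C-1 (1.22), Cnn2 (1.15) and Myh7-1 (1.15). Myh7-2 was detected in 15 of the 16, and its means over detecting cells were 11.39 in Hand1-detected cells and 10.65 in these. On Actb, Myh7-2 was at 0.06 and Myh7-1 at -0.32. Myl2, by which the 16 had been chosen, differed by 0.84 as measured and -0.62 on Actb. Flk-1 was the lower assay, detected in 5 of 31 Hand1-detected cells and 5 of the 16, with a difference of -1.03 (-1.31 on Actb, -1.19 on the median). Hand2 differed by -0.36 (-1.83 on Actb, -0.92 on the median).

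**Figure D4:**
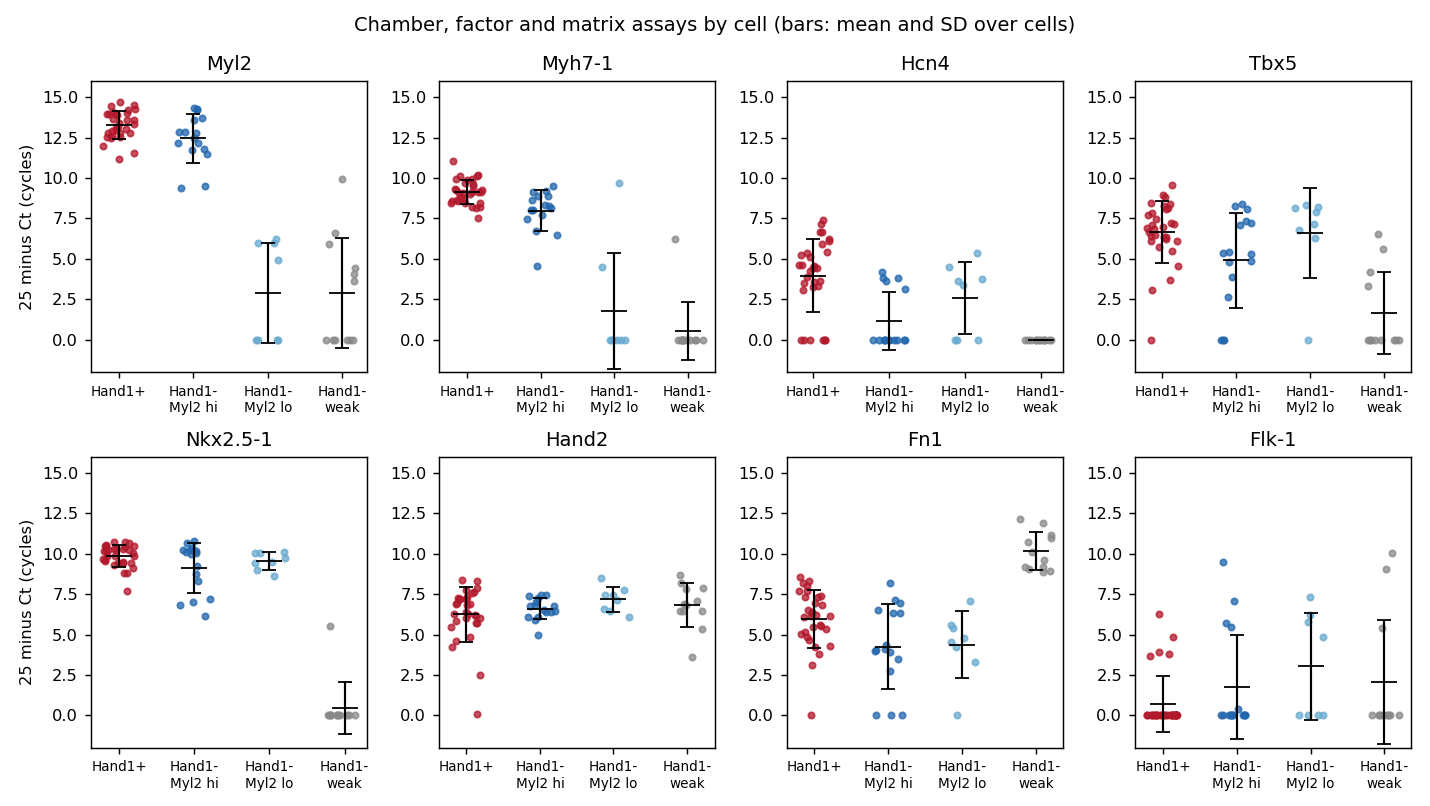
Values of 8 assays (25 minus Ct, in cycles) in single cells, with the mean and SD over cells in black. In each panel Hand1-detected cells (Hand1+, n = 31) stand left of the Hand1-undetected cells with high Myl2 (n = 16), low Myl2 (n = 8) and weak troponin (n = 12). The sets with low and high Myl2 differ in it by the way they were set. On Myh7-1, 7 of 8 low-Myl2 cells and 12 of 12 weak-troponin cells lie below every Hand1-detected cell. Hand2 averages between 6.25 and 7.18 in the 4 sets, and Hcn4 averages 3.97, 1.16, 2.58 and 0 from left to right.

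Over all 67 cells, the 5 assays with the highest Spearman correlation with Hand1 were Myh7-1 (0.70), Myh7-2 (0.68), Hcn4 (0.67), Myl2 (0.63) and Mef2C-1 (0.53). These coefficients count the 36 cells at 0 as ties, and all cells share 1 table and differ in total signal. Within the 31 Hand1-detected cells, which are graded over about 6 cycles of Hand1, the order was different. Actb and Tbx5 stood highest at 0.69 each, then Cnn2 and Hcn4 at 0.59 each and Mef2C-1 at 0.56. Since Actb itself ran with Hand1, each cell was centred on Actb as a check. The coefficient of Tbx5 was then 0.44, that of Hcn4 0.35 and that of Mef2C-1 0.06, and Myl2 and Myh7-1 were at -0.06 and 0.00. Centring both sides on the same Actb value can by itself add correlation, so these are descriptions only. The part of column order in these coefficients was not tested.

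**Figure D5:**
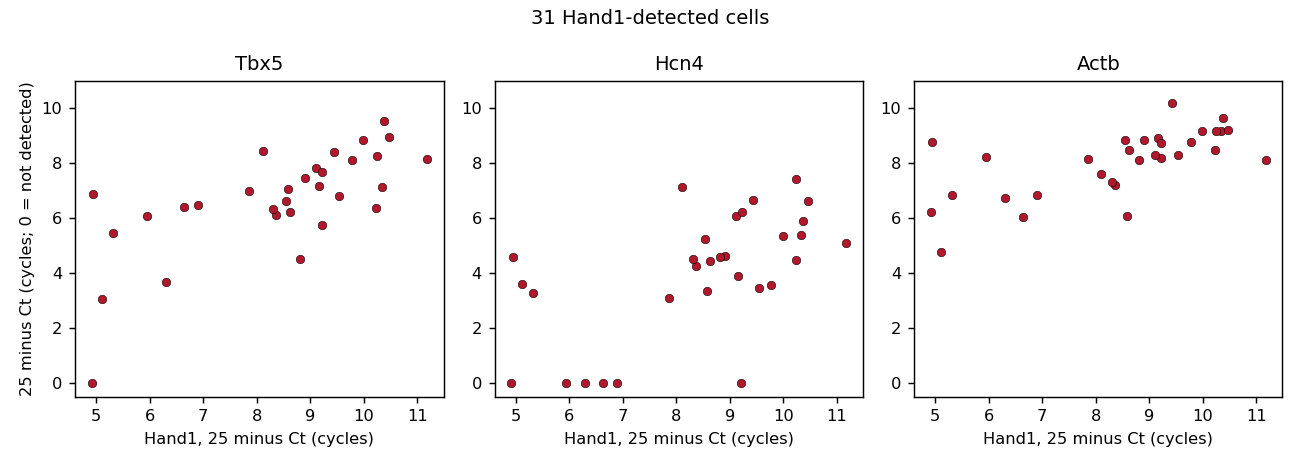
Tbx5, Hcn4 and Actb (vertical axes, 25 minus Ct in cycles) against Hand1 (horizontal axes, same unit) in the 31 Hand1-detected cells, 1 point per cell. All 3 tend upward with Hand1 (Spearman 0.69, 0.59 and 0.69), and 5 of the 6 cells without Hcn4 lie below 7 cycles of Hand1. These 5 are E10.5-45, E10.5-47, E10.5-53, E10.5-55 and E10.5-56, which stand close together in column order, and the part of column order was not tested.

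Other tables gave the share of troponin-detecting cells with Hand1 at other stages, with cells already counted among the 72 E10.5 cells left out. In embryos Hand1 was detected in 2 of 5 such cells at E8.5 and 3 of 6 at E9.5. In cultures it was detected in 1 of 1, 4 of 5, 5 of 6 and 3 of 6 at D5, D6, D7 and D8, and in 9 of 10 and 6 of 10 at D23 and D29. In hearts it was detected in 1 of 5 neonatal and 0 of 10 adult ventricular cells, and in 0 of 5 neonatal and 0 of 10 adult atrial cells. All 5 cells of the reference cardiomyocyte set detected it, at 7.003 ± 0.46 cycles (SD, n = 5), and 2 of them recur among the D29 cells and are counted in both sets. The intervals are wide (at E9.5, 11.8% to 88.2%), and 0 of 10 allows a share of up to 30%. Titles and table names disagree on the origin of the D5 to D8 and E7.5 to E10.5 cells, and the names inside the tables are followed here. The D5 to D8 cells are titled as E10.5 cells. The titles of the D23 to D29 cells give early stages of ES-derived cells, which disagrees with these late days.

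Where both sides held at least 3 cells, the same division was made at single stages. At E9.5, 3 Hand1-detected and 3 Hand1-undetected cells gave 6 assays higher by at least 1 cycle and 1 lower. Hcn4 averaged 4.52 ± 3.95 in E9.5 Hand1-detected cells and 1.10 ± 1.90 in E9.5 Hand1-undetected cells, with 2 of 3 and 1 of 3 detecting it, so the spread covers the difference of 3.43. Myl2 differed there by 1.39, Tbx5 by 0.57 and Myh7-1 by -0.88. At D8, with 3 cells on each side, 30 assays averaged at least 1 cycle more and 0 at least 1 cycle less, Actb by 2.29, Myl2 by 5.83 and Hcn4 by 2.17. At D29, with 6 Hand1-detected and 4 Hand1-undetected cells, 5 assays were past 1 cycle upward and 3 downward, Myl2 differed by 0.22 and Hcn4 by -0.56. Each of these divisions rests on few cells, and no difference between stages was tested.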

How the data were processed

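Per the labels' protocols, each sorted cell was lysed and its RNA copied to cDNA in its own well, pre-amplified with TaqMan assays and measured on Fluidigm 48x48 chips. The authors deposited Ct scores per cell and assay, with 25 where there was no signal; a correction to a housekeeping gene is not recorded. The sources used here do not give the Ct threshold, quality filter or cycle number.

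Expression was computed as 25 minus Ct. Cells with Tnnt2-1 below Ct 25 were divided by Hand1 below 25 or at 25. Means over all cells were compared, and differences of at least 1 cycle or shares differing by at least 20 percentage points were named, as were list members and the 5 assays most like Hand1. Members and lists were chosen with earlier results of these data known. Centring subtracted a cell's Actb or median detected assay, with undetected values at the lowest centred value. The cell number and the detection limit bound the precision. All 33 gene names matched RefSeq (30 symbols, 3 synonyms). The calculation of differences was checked on simulated cells in which every value was detected. That check therefore covered neither undetected values nor centring. No difference was tested statistically. Python 3.11.15, pandas 2.3.3 and scipy 1.17.1 were used.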

Additional observations from a re-analysis of the deposited data

How the results depend on the processing

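Alternatives that restrict cells to Tnnt2-1 of at least 10 cycles, with or without Myl2 of at least 8, were chosen after seeing the data. From 19 assays higher and 2 lower in Hand1-detected cells, the counts stayed within 1.5 times under centring on Actb (19 and 3), a Ct limit of 23, Hand1 below Ct 23, both Tnnt2 assays, a filter on cells and cells detecting Myl2. They became 14 and 11 on the median detected assay, 7 and 4 over detecting cells, 13 and 0 with medians, 10 and 1 with Tnnt2-1, Actn2 and Tnni3-1 all detected, 19 and 5 without recurring cells, 13 and 0 without cells detecting an endothelial marker, 6 and 1 in cells with at least the median number of detected assays, and 14 and 0 at 2 cycles. Strong troponin gave 9 and 2 (5 and 11 on Actb, 5 and 3 on the median, 5 and 1 over detecting cells), and high Myl2 9 and 1 (2 and 9 on Actb, 4 and 1 on the median). The Hand1 share was 65.96% with high Myl2, for which all Hand1-detected cells and 16 others qualified.

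Differences that turned their sign, with strong troponin, were Cnn1 (-0.24), Myh6-1 (-0.20), Tnni3-2 (-0.20) and Pdgfra (0.42), of which the first 3 also turned over detecting cells, at the same values. On Actb they were Actn2 (-0.95), Cnn1 (-1.55), Mef2C-2 (-0.38), Mef2C-1 (-0.074), Myh6-2 (-1.14), Myh6-1 (-1.52), Nkx2.5-1 (-0.71), Sm22A (-0.46), Tnni3-1 (-1.29), Tnni3-2 (-1.52), Tnnt2-2 (-1.08), Vcam1 (-0.21) and Pdgfra (0.31). On the median they were Actn2 (-0.35), Cnn1 (-0.96), Myh6-2 (-0.55), Myh6-1 (-0.92), Nkx2.5-1 (-0.12), Tnni3-1 (-0.69), Tnni3-2 (-0.92), Tnnt2-2 (-0.48) and Pdgfra (0.46). With high Myl2 they were Cnn1 (-0.24), Tnni3-2 (-0.026) and Pdgfra (0.22). High Myl2 on Actb turned Actn2 (-1.28), Cnn1 (-1.70), Mef2C-2 (-0.16), Myh6-2 (-0.58), Myh6-1 (-0.93), Myh7-1 (-0.32), Myl2 (-0.62), Nkx2.5-1 (-0.72), Pou5f1 (-0.46), Sm22A (-0.55), Tnni3-1 (-1.13), Tnni3-2 (-1.49) and Tnnt2-2 (-1.28). High Myl2 on the median turned Actn2 (-0.38), Cnn1 (-0.80), Myh6-1 (-0.023), Tnni3-1 (-0.23), Tnni3-2 (-0.59), Tnnt2-2 (-0.38) and Pdgfra (0.20). Cells with many detected assays turned Cnn1 (-0.016), Myh6-2 (-0.061) and Tnni3-2 (-0.090). The cause of these turns was not tested. No paired analysis was possible because both groups come from 1 table and share no replicate numbers.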

Other observations

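Of the 72 cells, 5 gave no Tnnt2-1 signal and stand outside the comparison. All 5 detected the endothelial cadherin Cdh5, at 10.1 to 11.2 cycles, and Pecam1, at 5.99 to 8.31, and none detected Actn2. Hand1 was detected in 1 of them, at 6.17 cycles, together with Cdh5 at 10.8, Pdgfra at 7.93 and Cnn1 at 8.27. Hand1 signal at this stage was thus found in 1 cell with endothelial transcripts and no troponin T, beside the 31 troponin-detecting ones.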
